A study of Bos taurus with 79 samples.

Results

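The 6 enzymes PHGDH, PSAT1, SHMT1, SHMT2, MTHFD2 and MTHFD1L, of serine synthesis and one-carbon metabolism, were followed in the uterine lining of heifers. All probe sets to which the platform annotation gives 1 of these symbols alone were taken, which gave 11 of the 24016 probe sets tested and 6 of the 9155 named genes. PHGDH (gene ID 505103), SHMT1 (509002), SHMT2 (507197) and MTHFD1L (534296) had 1 probe set each, PSAT1 (533044) had 3 and MTHFD2 (517539) had 4. The probe sets of 1 gene are numbered by falling mean over all arrays (the first, the second and so on). The 6 genes were chosen by their log2 levels over the 16 groups of these same arrays, so their differences between days and groups are given as a description and support no claim about the genes as a set.

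Endometrium is the mucosa of the uterus, and its glands secrete the fluid that feeds the embryo before it attaches. RNA from 79 samples of this tissue was hybridised to Affymetrix bovine arrays, 1 array per sample, and the labels call the samples biological replicates. The cross-bred beef heifers, all estrous synchronised and of an age that the labels do not give, were slaughtered on day 5, 7, 13 or 16 after estrus. On each day there were pregnant heifers with high progesterone (PH), pregnant heifers with normal progesterone (PN), cyclic heifers with high progesterone (CH) and cyclic heifers with normal progesterone (CN). In the high groups a progesterone-releasing intravaginal device (PRID) was inserted on day 3 and left in place until slaughter, and the normal groups received none. There were 5 arrays in each of the 16 groups apart from day 7 CH, with 4. CH 3, for example, stands for the array of replicate 3 of the CH group.

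Serine is made from the glycolytic intermediate 3-phosphoglycerate in a route opened by PHGDH (phosphoglycerate dehydrogenase), continued by PSAT1 (phosphoserine aminotransferase) and closed by PSPH (phosphoserine phosphatase). SHMT1 in the cytosol and SHMT2 in mitochondria then split serine into glycine and a one-carbon unit carried on tetrahydrofolate. In mitochondria MTHFD2 oxidises that unit and MTHFD1L releases it as formate, which leaves for the cytosol and feeds the synthesis of purines, thymidylate and methyl groups. SHMT2 and MTHFD2 are known for high expression in dividing cells.

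The deposited values are log2 expression values, on which a difference of 1 is a 2-fold change, and they ran from 0.95 to 15.37. Array medians lay between 4.71 and 5.12, and the precision of a value is limited by how many arrays its group had. Each difference is printed ± its SE from 1 limma fit over all arrays, and a probe set is called where its Benjamini-Hochberg adjusted p, over all 24016 probe sets of a comparison, was under 0.05. Of the markers of the tissue, 10 of 11 epithelial and all 9 stromal genes had means of at least 3, while the epithelial keratin KRT8 had a mean of 2.23. The mean of 8 smooth muscle markers exceeded 10 in 3 arrays (day 5 PN 4, day 7 PH 5 and day 13 PH 4), 2 arrays (day 7 CH 3 and day 13 PH 1) had a narrow distribution of values, and 5 arrays lay far from their group mean (day 5 CH 3, day 7 CN 5, day 7 CH 3, day 13 PH 1 and day 13 PH 4). In whole tissue, fewer cells of a type and less RNA per cell cannot be told apart.

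PHGDH, the first enzyme of serine synthesis, was high on days 5 and 7 and low on day 16. Over all groups its lowest, median and highest values were 10.45, 11.10 and 11.71 on day 5 (20 arrays), 9.67, 12.01 and 12.47 on day 7 (19 arrays), 6.54, 10.93 and 11.86 on day 13 (20 arrays), and 6.29, 9.07 and 10.04 on day 16 (20 arrays). It rose by 0.80 ± 0.23 on day 7 relative to day 5, and then fell by 1.31 ± 0.23 on day 13 relative to day 7 and by 1.93 ± 0.23 on day 16 relative to day 13. The SD of PHGDH over all arrays of a day was 0.41 on day 5, 1.29 on day 13 and 1.07 on day 16.

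PSAT1, the second enzyme of the route, had a similar course with a steeper fall between days 7 and 13. Its first probe set had a lowest, median and highest value of 11.89, 12.55 and 13.27 on day 5, 11.99, 13.06 and 13.64 on day 7, 8.33, 10.63 and 11.89 on day 13, and 7.68, 9.07 and 10.17 on day 16. It fell by 2.34 ± 0.18 on day 13 relative to day 7 and by 1.60 ± 0.18 on day 16 relative to day 13. All 20 day 13 arrays lay below all 19 day 7 arrays for this probe set, and the same held for the second, with a difference of -3.08 ± 0.20, and the third with one of -3.18 ± 0.23. Between days 5 and 7 the first probe set was 0.44 ± 0.18 higher on day 7 and was not called, while the others rose by 0.78 ± 0.20 and 0.81 ± 0.23. Across the 16 group means the 3 probe sets correlated at 0.99 to 1.00, which are values of shared arrays.

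**Figure D1:**
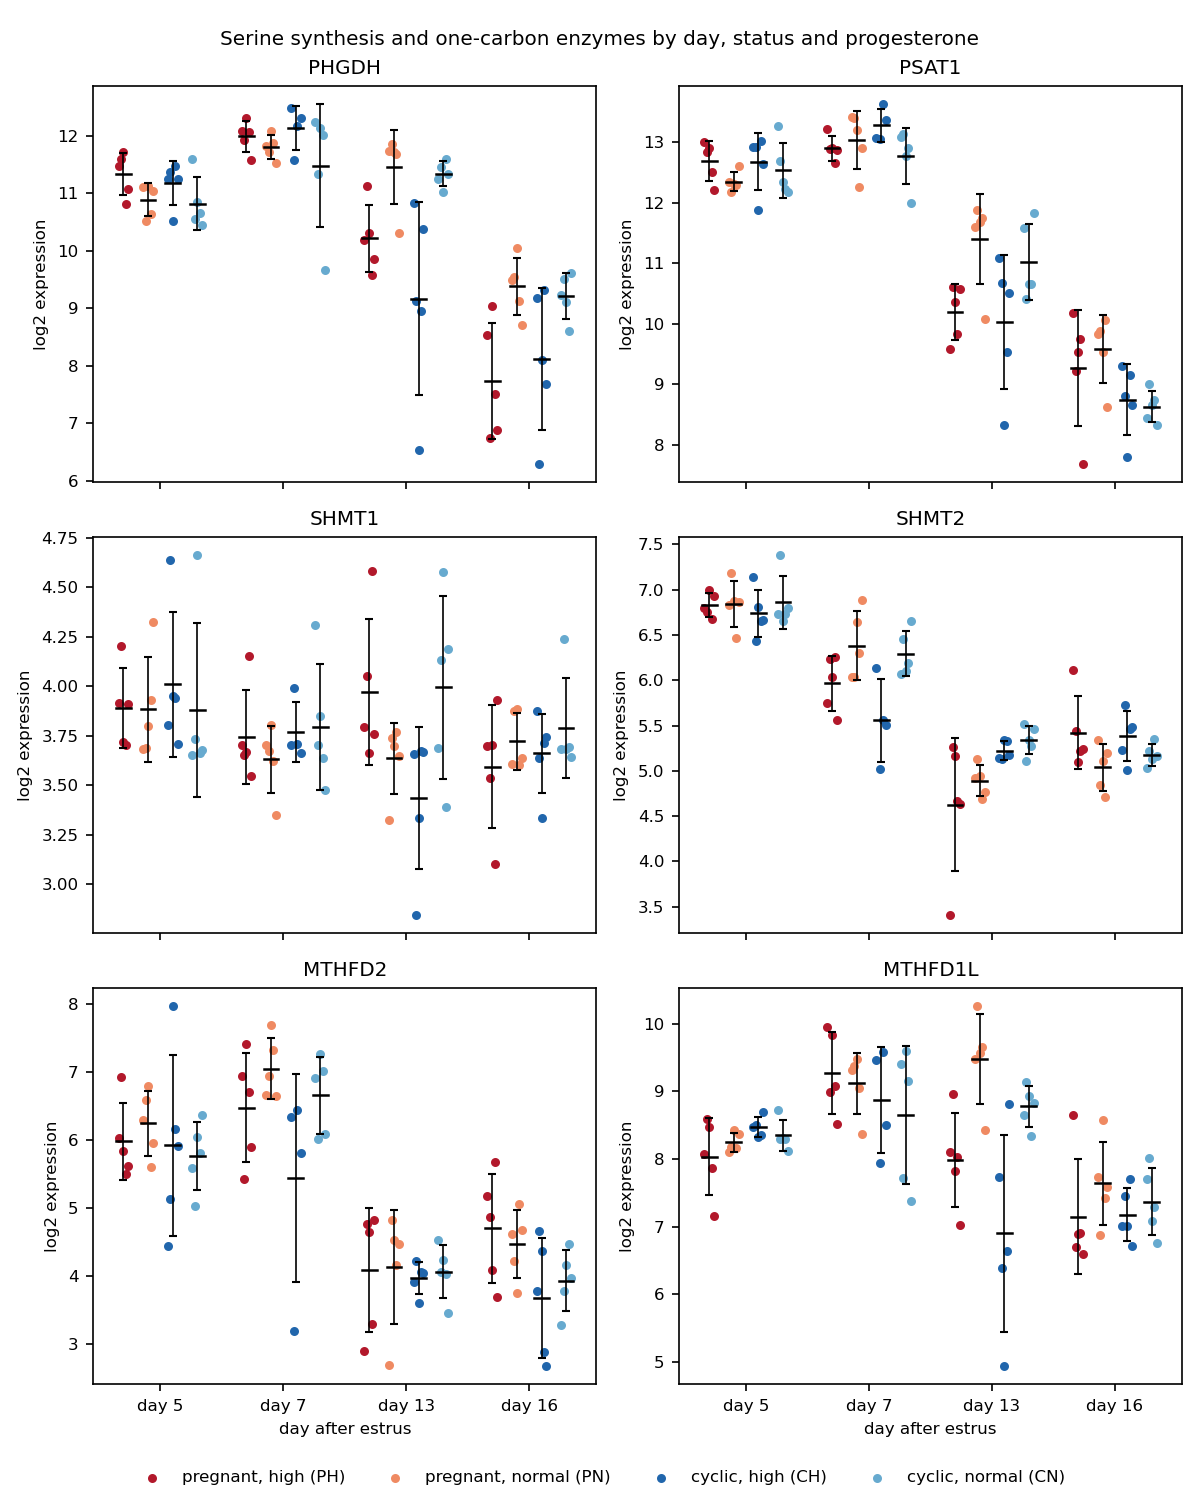
Log2 expression of the 6 genes, each shown by its first probe set, in every array (points) by day after estrus on the horizontal axis, with the group mean and SD in black. Within a day the groups run PH, PN, CH, CN. PHGDH and PSAT1 sit at 10.45 or above on days 5 and 7 apart from 1 PHGDH array at 9.67, and on day 13 the CH arrays of PHGDH and MTHFD1L reach down to 6.54 and 4.94. The vertical axes differ between genes.

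PSPH, the enzyme that completes the route, rose on day 13 relative to day 7, where PHGDH and PSAT1 fell. Averaged over the arms PSPH also fell on day 16 relative to day 13, but it did not fall in PN. It is not among the 6 genes and comes from the list of 19 measured genes of serine and glycine metabolism. PSPH had a lowest, median and highest value of 4.30, 5.62 and 7.15 on day 7, against 5.35, 6.17 and 7.97 on day 5. On day 13 these values were 8.15, 10.67 and 12.19, so that all 20 day 13 arrays lay above all 19 day 7 arrays, as held for 0.725% of all probe sets, and on day 16 they were 5.72, 9.72 and 10.94. PSPH rose by 4.94 ± 0.26 on day 13 relative to day 7 (limma adjusted p = 5.08e-25) and fell by 1.12 ± 0.26 on day 16 relative to day 13 (limma adjusted p = 0.00241). Its mean on day 13 was 11.02 ± 0.94 in PH, 10.45 ± 0.58 in PN, 10.16 ± 1.21 in CH and 10.59 ± 0.84 in CN (SD, n = 5 each), and the difference by progesterone on that day was 0.07 ± 0.37 (limma adjusted p = 0.979). On day 16 the mean was 9.47 ± 0.86 in PH, 10.47 ± 0.50 in PN, 8.43 ± 1.68 in CH and 9.39 ± 0.67 in CN (SD, n = 5 each).

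**Figure D2:**
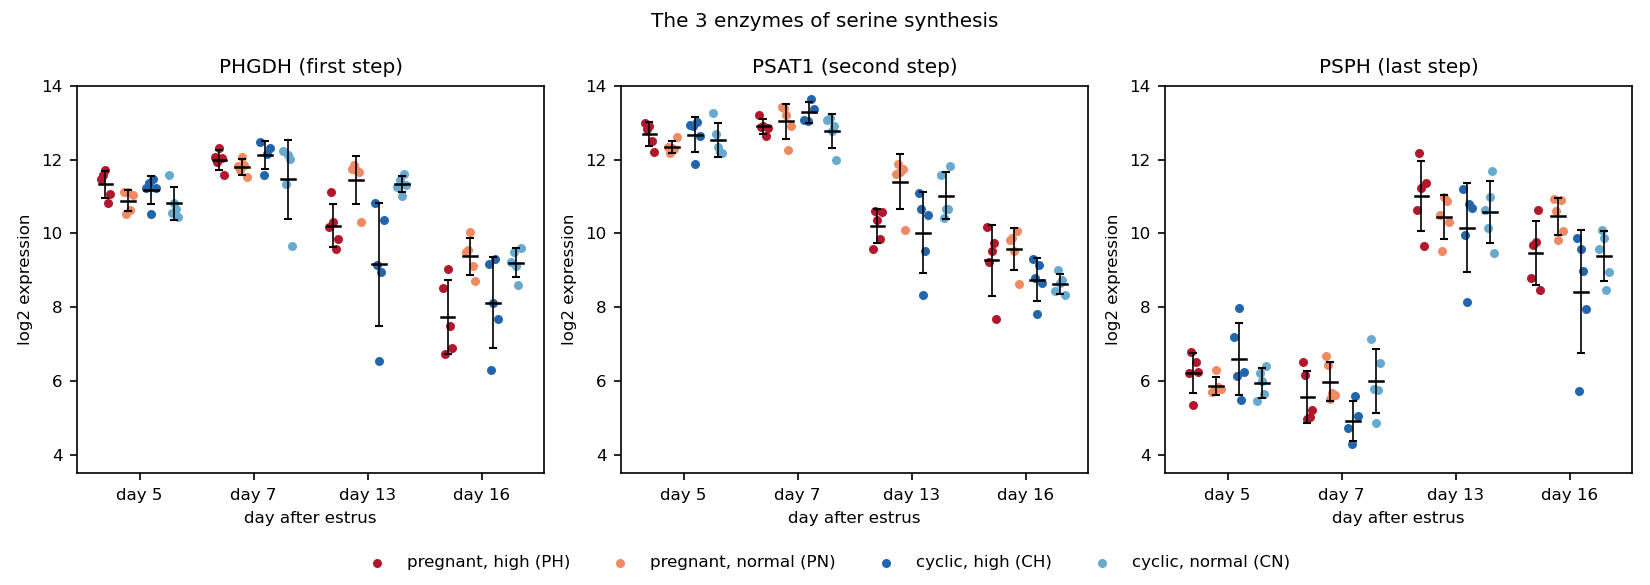
Log2 expression of PHGDH, PSAT1 and PSPH, the enzymes of serine synthesis in order, in every array by day after estrus, with the group mean and SD in black and the groups of a day in the order PH, PN, CH, CN. PHGDH and PSAT1 are lower on days 13 and 16 than on day 7, while all PSPH values of day 13 (8.15 to 12.19) lie above all those of day 7 (4.30 to 7.15). Levels of different probe sets are not comparable.

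SHMT2, the mitochondrial serine hydroxymethyltransferase, fell in steps. Its lowest, median and highest values were 6.43, 6.79 and 7.38 on day 5, 5.02, 6.10 and 6.89 on day 7, 3.41, 5.14 and 5.52 on day 13, and 4.71, 5.22 and 6.11 on day 16. It fell by 0.77 ± 0.10 on day 7 relative to day 5 and by 1.03 ± 0.10 on day 13 relative to day 7, and differed by 0.23 ± 0.10 on day 16 relative to day 13, which was not called. In PH alone its mean rose from 4.63 ± 0.74 on day 13 to 5.42 ± 0.40 on day 16 (SD, n = 5 each). That rise was called, where 874 of all probe sets were called in either direction. SHMT2 was the only 1 of the 6 genes that was lower on day 7 than on day 5 past the threshold. SHMT1, the cytosolic form, was nearly level at the low end of the scale: its group means lay between 3.44 and 4.01 and its arrays between 2.85 and 4.66. Its day differences were -0.18, 0.02 and -0.07 on days 7, 13 and 16, each relative to the preceding day studied, and none was called.

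MTHFD2, the mitochondrial dehydrogenase, was higher on days 5 and 7 than on days 13 and 16. The first probe set had a lowest, median and highest value of 4.43, 5.93 and 7.97 on day 5, 3.19, 6.66 and 7.69 on day 7, 2.69, 4.11 and 4.82 on day 13, and 2.67, 4.20 and 5.67 on day 16. All 4 probe sets fell on day 13 relative to day 7, by 2.34 ± 0.24, 1.67 ± 0.18, 2.13 ± 0.17 and 0.91 ± 0.14. Of the 79 arrays, 4 were under 3 for the first probe set, and the smallest fall belonged to the fourth probe set, whose highest array on day 13 was 3.48. On day 7 relative to day 5 the fourth probe set alone was called, and it rose by 0.40 ± 0.14, and between days 13 and 16 none was called.

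MTHFD1L, the mitochondrial enzyme that releases formate, rose by 0.70 ± 0.21 on day 7 relative to day 5, fell by 0.69 ± 0.21 on day 13 relative to day 7 and fell by 0.95 ± 0.21 on day 16 relative to day 13. Its lowest, median and highest values were 7.16, 8.32 and 8.73 on day 5, 7.38, 9.16 and 9.95 on day 7, 4.94, 8.54 and 10.26 on day 13, and 6.60, 7.19 and 8.64 on day 16. Day 13 held both the highest and the lowest of the 79 MTHFD1L values, and its arrays overlapped with those of every other day.

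Counted over the 11 probe sets, 5 rose and 1 fell on day 7 relative to day 5, where 8.84% and 11.8% of all probe sets did (20.7% called in either direction). On day 13 relative to day 7, 10 of 11 fell, where 18.1% of all probe sets fell and 36.9% were called. On day 16 relative to day 13, 5 of 11 fell, where 3.62% of all fell and 8.65% were called. The arrays of days 7 and 13 did not overlap, with day 13 lower, for 4 of the 11 (the 3 of PSAT1 and the fourth of MTHFD2), as for 0.433% of all probe sets. The fourth MTHFD2 probe set was barely separate, with its highest day 13 array at 3.479 and its lowest day 7 array at 3.486. The median differences of the 11 probe sets were 0.43, -1.67 and -0.07 in the 3 comparisons, against 0.01, -0.01 and 0.00 over all probe sets. Since the genes were chosen for these levels, nothing is read from the counts.

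Taken by arm, PHGDH and MTHFD1L passed the threshold on day 13 in the arms with high progesterone. PHGDH fell on day 13 relative to day 7 by 1.78 ± 0.46 in PH and by 2.97 ± 0.49 in CH, while it differed by -0.35 ± 0.46 in PN and -0.14 ± 0.46 in CN, which were not called. On day 16 relative to day 13 its difference was -2.47 ± 0.46 in PH, -2.08 ± 0.46 in PN and -2.12 ± 0.46 in CN, all called, and -1.05 ± 0.46 in CH, which was not called. Over all probe sets 0.979% fell in PH, 0.812% in PN, 0.15% in CH and 0.383% in CN on day 16 relative to day 13. MTHFD1L on day 13 relative to day 7 had called differences of -1.28 ± 0.42 in PH and -1.97 ± 0.45 in CH, against differences of 0.36 ± 0.42 in PN and 0.12 ± 0.42 in CN that were not called. The first PSAT1 probe set fell in every arm on day 13, with differences of -2.72 ± 0.36 in PH, -1.64 ± 0.36 in PN, -3.26 ± 0.38 in CH and -1.76 ± 0.36 in CN. Called falls of the 11 probe sets numbered 10 in PH, 8 in PN, 7 in CH and 8 in CN on day 13 relative to day 7, where 8.39%, 9.59%, 13.9% and 8.19% of all probe sets fell in the same 4 arms.

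High progesterone was set against normal progesterone on each day, averaged over pregnant and cyclic heifers, which asks what the device changed. On day 13 PHGDH, PSAT1 and MTHFD1L were all lower with high progesterone. PHGDH was 10.19, 11.13, 10.31, 9.58 and 9.86 in the 5 PH arrays, against 11.74, 11.86, 11.71, 11.67 and 10.31 in the PN arrays. It was 10.83, 9.13, 6.54, 8.96 and 10.37 in the CH arrays, against 11.25, 11.46, 11.03, 11.60 and 11.32 in the CN arrays. All CH arrays lay below all CN arrays, as held for 1.67% of all probe sets, while the PH and PN arrays overlapped through PN 5, the lowest PN array. The PHGDH difference was -1.70 ± 0.32, and it was -1.24 ± 0.46 in pregnant and -2.17 ± 0.46 in cyclic heifers. These SEs take 1 spread for all 16 groups, while the PHGDH SD on day 13 was 1.67 in CH, 0.22 in CN, 0.59 in PH and 0.65 in PN.

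MTHFD1L was 8.11, 8.97, 7.82, 8.03 and 7.02 in the PH arrays of day 13, against 9.48, 10.26, 9.57, 9.66 and 8.42 in the PN arrays. It was 7.73, 6.38, 4.94, 6.65 and 8.81 in the CH arrays, against 8.65, 9.14, 8.92, 8.34 and 8.83 in the CN arrays. In each status 4 of the 5 arrays with high progesterone lay below every array with normal progesterone. The MTHFD1L difference was -1.68 ± 0.30. PSAT1 was 9.58, 10.61, 10.36, 9.84 and 10.58 in the PH arrays, against 11.61, 11.89, 11.68, 11.75 and 10.09 in the PN arrays. It was 11.08, 10.67, 8.33, 9.53 and 10.51 in the CH arrays, against 11.58, 10.41, 10.66, 10.65 and 11.82 in the CN arrays. The CH and CN values of PSAT1 overlapped widely, and its difference was -1.11 ± 0.25.

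On day 13, 3 of the 11 probe sets fell with high progesterone and none rose, where 0.396% of all probe sets fell and 0.441% were called. These were the probe sets of PHGDH and MTHFD1L and the first of PSAT1, while its other two differed by -1.10 ± 0.28 and -1.12 ± 0.32 and were not called. The median difference of the 11 probe sets was -0.19, against 0.02 over all. The array CH 3 was the lowest of the 20 day 13 arrays for PHGDH, PSAT1, MTHFD1L and also PSPH, at 8.15, while its mean of the epithelial markers was 8.27. Leaving out any 1 array of day 13 kept PHGDH between -1.91 and -1.38 and MTHFD1L between -1.92 and -1.44, both still called, whereas PSAT1 was no longer called without CH 3, CN 5 or PH 1. With day 13 fitted alone none of the 3 was called. The mean of the epithelial markers on day 13 was 8.15 ± 0.31 with high and 8.18 ± 0.19 with normal progesterone (SD, n = 10 each), and none of the epithelial, stromal, endothelial, smooth muscle or leukocyte markers was called there. At the 0.441% of all probe sets called there, few or no marker calls would be met in any case. The part of cell composition in these differences was not tested.

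On day 7 SHMT2 and 2 of the 4 MTHFD2 probe sets fell with high progesterone, while SHMT1 and the first MTHFD2 probe set were not called. SHMT2 was 5.75, 6.23, 6.04, 6.25 and 5.56 in PH, against 6.03, 6.03, 6.64, 6.30 and 6.89 in PN. It was 6.13, 5.02, 5.57 and 5.51 in CH, against 6.07, 6.45, 6.10, 6.19 and 6.66 in CN. The highest CH value, 6.13, reached into the CN range and the other three lay below it. SHMT2 differed by -0.58 ± 0.15, and the called MTHFD2 probe sets by -0.85 ± 0.26 (the second) and -0.92 ± 0.25 (the third). In all 3 of 11 probe sets fell, where 2.84% of all fell and 4.70% were called. Without CH 3, an array with a narrow distribution, none of these 3 was called, and with day 7 fitted alone none was either. PHGDH differed by 0.42 ± 0.33 and MTHFD1L by 0.19 ± 0.31 on day 7, neither called.

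Cell cycle genes were also lower with high progesterone on day 7: 13 of 20 measured fell and none rose, where 4.52% of named genes fell. BIRC5, which codes for survivin, differed by -2.20 ± 0.44 (limma adjusted p = 0.000713), and CDK1, the kinase of mitotic entry, differed by -2.04 ± 0.43 (limma adjusted p = 0.00129). The mean of the list was 5.02 ± 0.52 with high progesterone (n = 9) and 6.18 ± 0.96 with normal progesterone (SD, n = 10). The leukocyte markers averaged 4.81 ± 0.24 with high and 5.23 ± 0.54 with normal progesterone over the same arrays, and none of the 13 was called. Their part in the differences of SHMT2 and MTHFD2 was not tested.

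**Figure D3:**
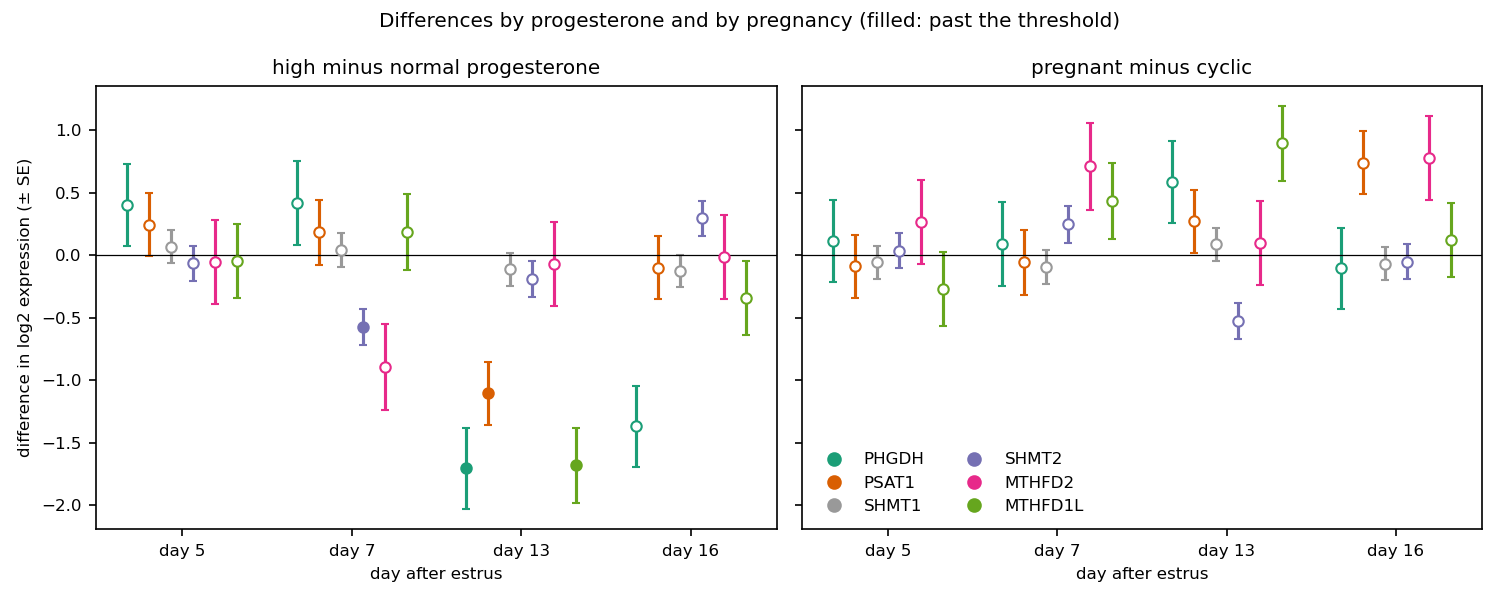
Differences in log2 expression ± SE, high minus normal progesterone on the left and pregnant minus cyclic on the right, for the first probe set of each gene on each day after estrus. Filled points are called by limma over all probe sets. The filled points are SHMT2 on day 7 (-0.58) and PHGDH, PSAT1 and MTHFD1L on day 13 (-1.70, -1.11 and -1.68), and none of the pregnancy differences of these probe sets is filled.

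No probe set of the 6 genes was called by limma for progesterone on day 5, where 0.908% of all were and 0 of the 11 had an unadjusted p under 0.05. On day 16 none was called either, where 0.0958% of all were. PHGDH was 8.53, 6.74, 9.04, 7.50 and 6.89 in PH on day 16, against 9.49, 9.55, 10.04, 9.13 and 8.71 in PN. It was 9.18, 6.29, 8.10, 9.32 and 7.68 in CH, against 9.24, 9.51, 9.11, 8.61 and 9.60 in CN. The difference of -1.37 ± 0.32 missed the threshold over all probe sets, and PHGDH and SHMT2 (0.29 ± 0.14) were the 2 probe sets of the 11 with an unadjusted p under 0.05. PHGDH was called without arrays with a narrow distribution, none of which is of day 16, and without any of 3 single day 16 arrays (CH 1, CH 4 and PH 3).

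The change of the progesterone difference between days was fitted as a difference of differences. On day 13 relative to day 7 it was -2.12 ± 0.47 for PHGDH, -1.87 ± 0.43 for MTHFD1L, and -1.29 ± 0.36, -1.59 ± 0.41 and -1.58 ± 0.46 for the 3 PSAT1 probe sets. In this comparison 4 of the 11 probe sets were called, all lower, where 0.995% of all were lower and 1.44% were called. The MTHFD2 probe sets had differences of the other sign, between 0.64 and 0.99, and SHMT2 had 0.39 ± 0.20, none of them called. PHGDH was called in all 10 alternative settings and MTHFD1L in all but the fit of the days concerned alone. The first PSAT1 probe set was lost in 6 of the 10 settings and the second in 5. None of the 11 was called by limma for day 7 relative to day 5, where 0.820% of all were, or for day 16 relative to day 13, where 0.0291% were, with 4 and 3 of the 11 at an unadjusted p under 0.05.

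Pregnant heifers were set against cyclic ones on each day, averaged over progesterone. Of the 11 probe sets limma called none on day 5 (0.0167% of all), day 7 (0% of all) and day 13 (0% of all), with 0, 3 and 2 of the 11 at an unadjusted p under 0.05. On day 13 those were MTHFD1L, with a difference of 0.90 ± 0.30, and SHMT2, with -0.52 ± 0.14. On day 16, 1 of 11 rose in pregnant heifers, where 2.13% of all rose and 3.16% were called. It was the third MTHFD2 probe set, with a difference of 0.85 ± 0.24, and it was lost in 9 of the 20 fits that left out 1 array of day 16. The first MTHFD2 probe set was 5.18, 4.87, 4.09, 5.67 and 3.69 in PH and 4.62, 4.23, 3.75, 5.06 and 4.68 in PN on day 16. It was 3.78, 4.66, 4.36, 2.89 and 2.67 in CH and 3.27, 3.78, 4.16, 4.47 and 3.96 in CN, so that pregnant and cyclic arrays overlapped.

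PSAT1 on day 16 was 10.17, 9.22, 9.53, 9.75 and 7.68 in PH and 9.83, 9.87, 9.53, 10.06 and 8.63 in PN. In cyclic heifers it was 9.31, 8.80, 7.80, 9.15 and 8.65 in CH and 8.45, 9.00, 8.65, 8.74 and 8.32 in CN. The difference of 0.74 ± 0.25 between pregnant and cyclic heifers was not called, and it was called without PH 5 or without PN 5, the lowest arrays of their groups. Of the 10 measured interferon-stimulated genes, all rose in pregnant heifers on day 16, where 2.84% of named genes rose, with a list median of 4.76 against -0.02 over all named genes. MX2, an antiviral GTPase, had the largest difference of the 10, 7.03 ± 0.70 (limma adjusted p = 1.31e-11). None of the 11 probe sets was called for an interaction of pregnancy and progesterone on any day, where limma called 0%, 0.0250%, 0.0208% and 0.870% of all on days 5, 7, 13 and 16. The 1 unadjusted p under 0.05 over the 4 days was that of SHMT1 on day 13. The change of the pregnancy difference between successive days was not called for any of the 11 either, where limma called 0.00416%, 0% and 0.974% of all, and 1, 2 and 1 of the 11 had an unadjusted p under 0.05.

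The order of the 16 group levels was taken for the first probe set of each gene. Group means spanned 4.65 for PSAT1, 4.39 for PHGDH, 3.38 for MTHFD2, 2.58 for MTHFD1L, 2.23 for SHMT2 and 0.57 for SHMT1. PHGDH was highest in CH of day 7, at 12.13 ± 0.39 (SD, n = 4), and lowest in PH of day 16, at 7.74 ± 1.01 (SD, n = 5). PSAT1 was likewise highest in CH of day 7, at 13.28 ± 0.28 (SD, n = 4), and lowest in CN of day 16, at 8.63 ± 0.26 (SD, n = 5). MTHFD1L was highest in PN of day 13, at 9.48 ± 0.66, and lowest in CH of day 13, at 6.90 ± 1.46 (SD, n = 5 each). The arrays of neighbours in the order overlapped for all 15 pairs of neighbours except 1 of PSAT1, so the order of neighbouring groups is not resolved. Groups further apart can be separate, as CN and CH of day 13 were for PHGDH.

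Arrays of the same group that were high in PHGDH were also high in PSAT1 and MTHFD1L. Deviations of single arrays from their group mean, which hold no difference between days or groups, were correlated over 79 arrays for 15 pairs of genes, with permutation of arrays within groups (two-sided, 100000 draws, Benjamini-Hochberg over the 15 pairs). PHGDH and MTHFD1L had Pearson r = 0.67 (permutation p = 2e-05, adjusted p = 0.000225) and Spearman rho = 0.62 (permutation p = 1e-05, the smallest these draws can give, adjusted p = 0.00015). PHGDH and PSAT1 had r = 0.63 (permutation p = 3e-05, adjusted p = 0.000225) and rho = 0.52 (permutation p = 4e-05, adjusted p = 0.0003). PSAT1 and MTHFD1L had r = 0.50 (permutation p = 0.00096, adjusted p = 0.0048) and rho = 0.39 (permutation p = 0.00186, adjusted p = 0.0093). The median r of all pairs among 7393 genes was 0.03, with 0.37 at the 95th percentile. Some other genes reached like values. For PHGDH r was 0.75 with CRIPTO, 0.61 with PEPD and 0.44 with SMS, genes named below for likeness across group means. For PSAT1 it was 0.53 with ENPP3, 0.46 with OGDH and 0.32 with TXNRD1. For MTHFD1L it was 0.64 with PLEKHG1, 0.48 with NEBL and 0.24 with ARHGEF37. Whether the pairs of these enzymes exceed such pairs was not tested.

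Without the 2 arrays farthest from the PHGDH median, r stayed at 0.67 with MTHFD1L and 0.60 with PSAT1, and without the 2 farthest in PSAT1 it was 0.41 for PSAT1 and MTHFD1L. Within days 5, 7, 13 and 16 r was 0.61, 0.80, 0.86 and 0.31 for PHGDH with MTHFD1L and 0.83, 0.52, 0.78 and 0.44 for PHGDH with PSAT1. For SHMT1 and MTHFD1L r was 0.28 (permutation p = 0.0242, adjusted p = 0.0726) and rho was 0.34 (permutation p = 0.0042, adjusted p = 0.0157). The other 11 pairs did not pass in either measure, and MTHFD2 and SHMT2, both lower on day 13 than on day 7, had r = 0.23 (permutation p = 0.119, adjusted p = 0.297). The plot of deviations shows the PHGDH pairs along a rising line and the MTHFD2 and SHMT2 pair without one.

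**Figure D4:**
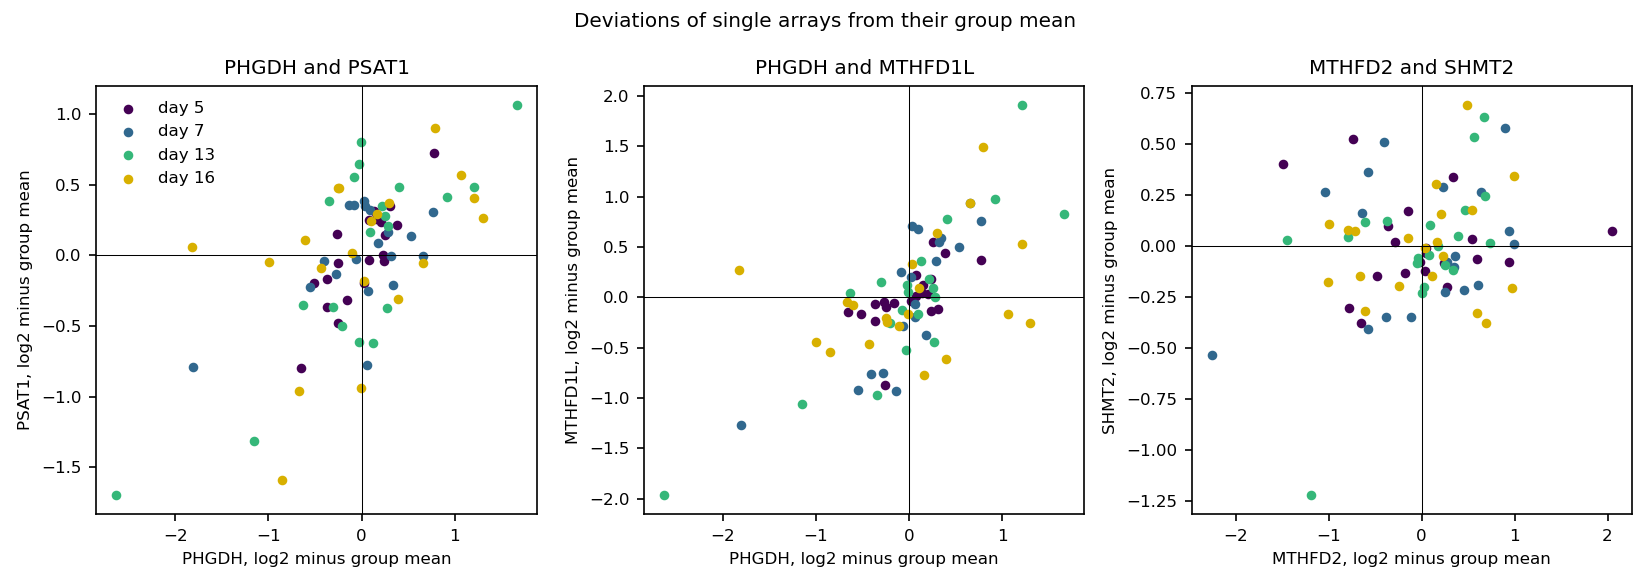
Deviation of each array from its group mean in log2 expression, 1 point per array coloured by day, for PHGDH with PSAT1 (left, r = 0.63), PHGDH with MTHFD1L (middle, r = 0.67) and MTHFD2 with SHMT2 (right, r = 0.23). The lowest point of the left and middle panels is CH 3 of day 13.

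Other genes of these pathways did not move as 1 block. Besides PSPH, 2 of the 19 measured genes of serine and glycine metabolism rose on day 13 relative to day 7 and 5 fell, where 19.5% and 26.2% of named genes did. SDS, which breaks serine down to pyruvate, fell by 1.34 ± 0.27 (limma adjusted p = 4.24e-05), and DMGDH, a mitochondrial enzyme of glycine formation, fell by 0.72 ± 0.18 (limma adjusted p = 0.000636). SLC1A4, a transporter of neutral amino acids that include serine, fell by 0.45 ± 0.15 (limma adjusted p = 0.0151). The list median was -0.06, against -0.02 over all named genes. On day 7 relative to day 5, 3 of the 19 fell and none rose, where 19.5% of named genes fell and 9.42% rose. Among the 3 was SLC1A5, a glutamine transporter, which fell by 0.97 ± 0.17 (limma adjusted p = 1.37e-05).

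The counts of the further lists on day 13 relative to day 7 stand against the same 26.2% of named genes that fell and 19.5% that rose. Of 12 measured folate cycle genes 3 fell and 1 rose, which is near those shares. MTHFD1, the cytosolic enzyme with 3 activities of the folate cycle, fell by 0.61 ± 0.06 (limma adjusted p = 9.55e-13). Of 11 measured genes of the methionine cycle and transsulfuration 4 fell and 1 rose. GNMT, which methylates glycine, fell by 3.89 ± 0.22, to a day 13 median of 5.03, against a day 7 median of 9.14. CBS, which joins serine to homocysteine, fell by 1.64 ± 0.12. Of 14 measured genes of purine and thymidylate synthesis 6 fell and 3 rose, with RRM2, a ribonucleotide reductase subunit, differing by -1.94 ± 0.30 (limma adjusted p = 2.17e-07) and RRM1, the other kind of subunit, by 0.62 ± 0.09 (limma adjusted p = 8.71e-09).

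Genes of glycolysis, the route that holds the precursor of serine, fell in 12 of 16 cases on day 13 relative to day 7 and none rose. The list also has genes of steps after that precursor, among them LDHA and LDHB. LDHA, lactate dehydrogenase A, fell by 2.54 ± 0.11 (limma adjusted p = 1.98e-29), and LDHB, the other lactate dehydrogenase subunit, by 0.87 ± 0.05 (limma adjusted p = 1.18e-21). ATF4 is a transcription factor known to induce PHGDH, PSAT1 and MTHFD2 under amino acid shortage, and of 31 measured genes of its target list 12 fell and 9 rose. GPT2, a mitochondrial alanine aminotransferase, rose by 1.42 ± 0.12 (limma adjusted p = 2.98e-16), while ALDH18A1, an enzyme of proline synthesis, fell by 1.30 ± 0.10 (limma adjusted p = 7.3e-17). Of 20 cell cycle genes 14 fell and 1 rose, and the mean of that list was 4.55 ± 0.07 on day 13 (n = 20) and 5.63 ± 0.97 on day 7 (SD, n = 19). With high progesterone on day 13, where PHGDH, PSAT1 and MTHFD1L fell, no gene of the serine, folate, methionine, glycolysis or ATF4 lists was called by limma. Only 0.441% of all probe sets were called there, so few calls in lists of this size would be met at that share. Of the genes on the other lists CCNB1, a mitotic cyclin, fell there by 1.62 ± 0.30 (limma adjusted p = 0.00104) and TK1, thymidine kinase, by 0.84 ± 0.19 (limma adjusted p = 0.0179).

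The named genes most like each of the 6 across the 16 group means were sought among 3228 genes with a range of group means of at least 1, as a description over group means. PHGDH was most like PEPD (r = 0.98), a dipeptidase of proline recycling, SMS (r = 0.98), spermine synthase, and CRIPTO (r = 0.97), a growth factor co-receptor. PSAT1 was most like TXNRD1 (r = 0.98), thioredoxin reductase, OGDH (r = 0.98), a subunit of the oxoglutarate dehydrogenase complex, and ENPP3 (r = 0.98), an ectonucleotidase. MTHFD1L was most like PLEKHG1 (r = 0.92), ARHGEF37 (r = 0.91) and NEBL (r = 0.91). MTHFD2 was most like VDAC2 (r = 0.98), a channel of the outer mitochondrial membrane, PRRG2 (r = 0.97) and TFDP2 (r = 0.97), a partner of E2F factors. SHMT2 was most like NUP188 (r = 0.98), a nuclear pore protein, RANBP1 (r = 0.98) and KPNA2 (r = 0.98), both of nuclear transport. For SHMT1, whose group means differ little, the closest genes reached r = 0.77 (MAP1B), 0.70 (LOX) and 0.66 (IKBIP).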

How the data were processed

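The values deposited by the authors, log2 expression for each probe set, were used unchanged. Per the labels' protocols RNA was extracted with Trizol and labelled with biotin. RMA, GCRMA and limma are named, with no version, per the submitters' processing notes. Whether RMA or GCRMA made the values, and so how background was removed from low ones, is not given in the sources used here.

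Of 24128 probe sets 112 controls were left out. By the platform annotation 13292 had 1 symbol, 86 several and 10638 none. Gene IDs of 13263 were found in a RefSeq gene table, which changed 0 symbols. A list gene is read from its brightest probe set over all arrays, and values under 3 are treated as near the floor. Means of the 16 groups were fitted with limma 3.58.1 in R 4.3.3 (63 residual and 1.49 prior degrees of freedom), with 21 comparisons and Benjamini-Hochberg adjustment within each. In simulated data of 24016 probe sets, 200 were changed by 1 or 2 log2 units in a comparison, with equal spread in all groups. Of the changes of 1 log2 unit 88% were called in the comparison of progesterone on day 13. In a difference of differences, that of pregnancy on day 16 relative to day 13, 79% were. The correlations of deviations were planned without p-values, and the permutation p-values were added.

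The 6 genes, the 13 gene lists and the comparisons were chosen with earlier results of these data known. Genes named are all probe sets of the 6 genes, up to 4 called members of each list with the largest differences, and the 3 genes most like each of the 6. Not all genes this rule admits are printed, and KRT8 was named after its value was seen. The alternative settings were quantile normalization, median centring, a filter on level, fitting only the days compared, array weights, moderation with a trend and robustly, single arms, a replicate block, and omission of single arrays or of arrays that stood apart. Replicate numbers were not used as pairs: deviations of arrays with the same number correlated at 0.0294, 0.0467, 0.0228 and -0.00919 on average on days 5, 7, 13 and 16. Python 3.11.15 with scipy 1.17.1 and matplotlib 3.10.9 served for the permutations and plots.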

Additional observations from a re-analysis of the deposited data

Results flagged for a closer look

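The progesterone difference (high minus normal) was called as changed on day 13 relative to day 7 for 4 of the 11 probe sets. Of all probe sets limma called 1.44% in this comparison. The changes were -2.12 for PHGDH, -1.87 for MTHFD1L, -1.29 for PSAT1 (first probe set) and -1.59 for PSAT1 (second probe set). The PSAT1 calls were lost in 6 and 5 of the 10 alternative settings. The genes were chosen by these same values, so the changes are given as a description.

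Of 176 groups of 4 or 5 arrays, over the 11 probe sets, 19 held an array whose gap to its nearest neighbour exceeded Dixon's critical value (10.8%, where chance gives about 5%), and these were 16 different arrays. For PHGDH they were day 5 CH 3 at 10.52 and day 13 PN 5 at 10.31, both low, and for PSAT1 (first probe set) the same day 13 PN 5 at 10.09, also low. For MTHFD1L it was day 16 PH 1 at 8.64, high. For MTHFD2 (second probe set) they were day 5 PN 4 at 4.33, low, and day 16 PN 4 at 4.90, high.

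The fourth MTHFD2 probe set was low on days 13 and 16, with means of 3.31 and 3.38. Its high arrays were day 5 CH 3 at 5.51, day 5 PH 2 at 4.65, day 16 PN 4 at 3.66 and day 16 PH 4 at 3.60. Its low ones were day 13 CN 3 at 3.12 and day 13 PN 3 at 2.84. For SHMT1 the high arrays were day 5 CN 3 at 4.66, day 5 CH 2 at 4.64, day 7 CH 3 at 3.99, day 7 PH 4 at 4.15 and day 16 CN 2 at 4.24, and the low one day 13 PN 1 at 3.33. For SHMT2 it was day 5 CN 2 at 7.38, high.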

How the results depend on the processing

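Counts below are of the 11 probe sets called. On day 7 relative to day 5 the count of 6 became 0 in CN alone, 3 in CH alone, 0 in PN alone, 1 in PH alone and 10 with array weights. Over all probe sets CN had 7 calls there, PN 1155, PH 1169 and CH 3650, against 4962 with the arms averaged. The 1 call of PH was the fall of SHMT2, and the 3 of CH were 2 rises and a fall of the same gene. On day 16 relative to day 13 the count of 5 became 0 in CH alone and 3 in PH alone, where 80 and 874 of all probe sets were called, against 2078. The 5 were all falls, while the 3 in PH were 2 falls and 1 rise, that of SHMT2. For pregnancy on day 16 the count of 1 became 0 at normal and 0 at high progesterone alone, 0 among probe sets above the median level and 5 with array weights. Of all probe sets 158 were called at normal and 1868 at high progesterone alone, against 759. For progesterone on day 7 the count of 3 became 0 in pregnant heifers alone, 0 with the day alone, 1 among probe sets above the median level and 1 without the arrays of narrow distribution. In pregnant heifers alone 126 of all probe sets were called for progesterone on day 7 and 15 on day 13, against 1128 and 106. For progesterone on day 13 the count of 3 became 0 in pregnant heifers alone and 0 with the day alone, and for day 16 the count of 0 became 1 with array weights, 1 without narrow arrays and 1 without far arrays. For the progesterone difference of day 13 relative to day 7 the count of 4 became 1 with these days alone, 2 without narrow arrays, 2 without far arrays and 2 without arrays of high smooth muscle markers, and for day 16 relative to day 13 the count of 0 became 1 with array weights. Leaving out 1 array in turn gave 5 to 7 on day 7 relative to day 5, 10 to 10 on day 13 relative to day 7, 5 to 5 on day 16 relative to day 13, 0 to 3 for pregnancy on day 16, 0 to 4, 2 to 5 and 0 to 1 for progesterone on days 7, 13 and 16, 2 to 5 for its change on day 13 relative to day 7, and 0 to 0 elsewhere. The sign turned for the fourth MTHFD2 probe set on day 7 relative to day 5 in CH (-0.22), for MTHFD1L on day 13 relative to day 7 in CN (0.12) and PN (0.36), and for MTHFD1L on day 16 relative to day 13 in CH (0.28). The replicate block, with a correlation of 0.011, made the count for progesterone on day 13 4 by adding the second PSAT1 probe set, and changed no other count. The cause of these changes was not tested. In the settings other than single arms the number called over all probe sets also varied. It ranged between 31 and 413 for progesterone on day 13 and between 0 and 5740 on day 16, against 106 and 23. For progesterone on day 7 it ranged between 223 and 1467, against 1128, and for pregnancy on day 16 between 374 and 3663, against 759. For day 7 relative to day 5 the range was 4378 to 6945, against 4962. For the progesterone difference of day 13 relative to day 7 it was 215 to 625, against 345. Low levels limit what SHMT1 and MTHFD2 can show, although only 1 SHMT1 array and at most 5 arrays of any MTHFD2 probe set were under 3.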
